A study of Mus musculus with 21 samples.

Results

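Interferon-stimulated genes were measured by RNA sequencing in 21 libraries of mouse E0771 breast cancer cells, a cultured mammary tumour line, in 7 groups of 3 libraries. The 45 genes described here are antiviral, signalling and GTPase genes taken by their symbols from the deposited gene table. All 45 were found among its 55573 genes, and all 45 passed the filter on low counts, which left 15432 genes for testing. Per the labels every group carries GFP and descends from 1 line. In the TGF-β1 group the cells overexpressed ZBTB18, a zinc finger transcription factor, held a doxycycline-inducible TGFBR2 (a TGF-β receptor), and were treated with TGF-β1 at 2 ng/mL together with doxycycline, which the label puts at 1 mg/mL. The vehicle group was the same line with doxycycline and no TGF-β1. ZBTB18OE cells overexpressed ZBTB18 without the receptor construct, and EV cells carried the empty vector. M11 (M11GFP) and M12 (M12GFP) were derived from spontaneous lung metastases of E0771GFP cells, and the parental group was untreated E0771GFP. Each genotype is a single line, so a difference between genotypes cannot be told apart from a difference between lines. The labels do not say that replicates were separate cultures, so the p-values measure only the spread between these libraries, which may be technical.

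Type I interferons such as interferon-β are secreted proteins that cells make when sensors detect foreign or misplaced nucleic acids. They bind the receptor chains Ifnar1 and Ifnar2, which activate the kinases Jak1 and Tyk2. These phosphorylate transcription factors, among them Stat2, which acts with Irf9 to bind the interferon-stimulated response element (ISRE) in the promoters of target genes. Tumour cells can show this programme without infection, and it varies between cell lines.

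Library totals lay between 24208564 counts (M11 replicate 3) and 90518866 counts (vehicle replicate 1). Parental replicate 1 stands apart, with 14% of its counts on Gm42418, a gene that overlaps ribosomal RNA sequence, against at most 0.0918% in the other libraries. Its TMM scaling factor was 0.839. The edgeR counts, folds and correlations that use the parental libraries were therefore recomputed without it, and its absence is given beside each whose count or call changed or whose fold moved by over 1.5 times. Zbtb18 was at 75.3 to 124 CPM in the 9 libraries of the lines labelled as overexpressing it, against 24.1 to 25.7 CPM in EV. Tgfbr2 was at 566 to 626 CPM in the receptor groups, against 1.47 to 1.97 CPM in ZBTB18OE. Mitochondrial genes held 0.525% to 1.09% of the counts in TGF-β1, vehicle, ZBTB18OE and EV libraries. They held 1.80% to 3.42% in M11, M12 and parental libraries. The part of this difference in the results was not tested. As markers of the labelled cell type, Krt8 averaged 188 ± 22.1 CPM in parental cells (SD, n = 3), while Krt18 was at 0.0643 ± 0.0459 CPM and Cdh1 at 0.0682 ± 0.0199 CPM there. Markers of blood, endothelial and fibroblast cells are given beside the comparisons they move with. Ptprc, which marks blood cells, had at most 5 reads in any group. The 15 blood and immune cell markers together summed to 33.9 to 89.2 CPM in M12, against 8.0 to 13.5 CPM in parental cells. In bulk RNA, fewer cells of a type and less RNA per cell cannot be told apart.

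The promoters of 6 of the most variable genes are shown because each holds a match to the core of the element through which interferon acts. RefSeq promoter windows (GRCm38.p6, 250 bases before to 50 after the start) matched 34 of the 45 genes. The ISRE core was searched as GAAA and GAAA with any 2 bases between them, or as TTTC and TTTC with any 2 bases between them, its reverse complement. It was found in 19 of the 34 (55.9%), against 3.99% of 27025 genes with a window. Of the 10 genes with the widest parental spread, Oasl2 has a window without a match, and Rtp4, Usp18 and Oas2 have no window. A second window of Gbp3 has no match in the 160 bases before its start. TTCNNNGAA, the gamma-activated site motif, was found in 9 of the 34 (26.5%), against 9.55% of all genes, and a pair of matches may overlap. A match is a description of the letters and not evidence of binding. The stretches below are the 160 bases before the start, read 5′ to 3′ on the gene's strand, with the ISRE core in capitals. On the plus strand they are Ifit1 at chr19:34640729-34640888, Ifit3 at chr19:34583369-34583528 and Gbp3 at chr3:142559884-142560043. On the minus strand they are Isg15 at chr4:156200819-156200978, Oas3 at chr5:120777660-120777819 and Rsad2 at chr12:26456453-26456612.
Isg15: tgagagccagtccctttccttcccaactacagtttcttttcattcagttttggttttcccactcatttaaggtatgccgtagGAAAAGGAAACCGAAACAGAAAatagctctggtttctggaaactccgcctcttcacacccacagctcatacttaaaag
Ifit1: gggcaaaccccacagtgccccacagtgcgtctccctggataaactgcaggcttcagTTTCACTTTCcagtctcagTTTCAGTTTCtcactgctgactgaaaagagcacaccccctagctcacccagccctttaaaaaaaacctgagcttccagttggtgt
Ifit3: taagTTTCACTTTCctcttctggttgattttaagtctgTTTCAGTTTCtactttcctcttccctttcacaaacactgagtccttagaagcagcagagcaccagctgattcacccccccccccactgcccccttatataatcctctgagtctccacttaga
Oas3: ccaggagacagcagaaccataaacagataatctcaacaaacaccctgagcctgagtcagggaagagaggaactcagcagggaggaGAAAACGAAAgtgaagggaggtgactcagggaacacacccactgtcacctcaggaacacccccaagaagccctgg
Rsad2: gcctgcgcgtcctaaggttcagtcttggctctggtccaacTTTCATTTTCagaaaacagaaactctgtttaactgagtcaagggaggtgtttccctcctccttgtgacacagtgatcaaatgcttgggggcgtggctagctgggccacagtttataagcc
Gbp3: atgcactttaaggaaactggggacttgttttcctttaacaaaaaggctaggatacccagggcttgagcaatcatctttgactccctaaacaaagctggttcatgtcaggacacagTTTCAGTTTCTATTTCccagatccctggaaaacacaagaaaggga

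Isg15 has 3 overlapping matches in this stretch, and Ifit1 has a pair of separate ones. Several of the genes are neighbours in the genome (mm10, GENCODE vM21): Ifit2, Ifit3, Ifit3b and Ifit1 lie in this order between positions 34550694 and 34650009 of chromosome 19, and Rsad2 and Cmpk2 lie side by side on opposite strands of chromosome 12. Dtx3l and Parp9 overlap on opposite strands of chromosome 16. The library kit keeps strand, but whether the counting used it is not given in the sources used here.

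Most interferon-stimulated genes had their highest level in the parental line. Levels are CPM, read counts scaled to library size after TMM. All 45 genes differed among the 7 groups (edgeR quasi-likelihood F-test, adjusted p at most 0.0101), as did 92.7% of all tested genes. The parental group had the highest mean for 39 of the 45 genes, against 20.1% of all tested genes. Every parental library lay above every other library for 9 of the 45, against 4.54% of all. These counts were 33 (18.6% of all) and 10 (5.88% of all) without parental replicate 1. The 9 genes were Oas1a, Oas2, Oas3, Ifit2, Cmpk2, Ifih1, Ifi27l2a, Ifi44 and Trim30a. The lowest mean fell in ZBTB18OE for 22 genes and in M12 for 20. The 6 genes with their highest mean elsewhere, named after their values were seen, were Ifitm3 in M11, Epsti1 in M12, and Eif2ak2, Dtx3l, Gbp2 and Lgals3bp in vehicle.

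The summed level of the 45 genes is weighted towards the most abundant of them. It was 2071 to 2993 CPM in parental replicates 2 and 1, and 1058 CPM in parental replicate 3. It lay between 1087 and 1269 CPM in vehicle, between 950 and 1080 CPM in TGF-β1, and between 830 and 1276 CPM in M11. It lay between 723 and 841 CPM in EV, between 578 and 648 CPM in ZBTB18OE, and between 441 and 661 CPM in M12. By this sum, parental replicate 3 falls inside the range of M11 and of TGF-β1, and ZBTB18OE falls inside that of M12. The median log2(CPM + 1) of the 45 genes gave another order. It was 3.53 in parental replicate 3, 2.42 to 3.47 in M11, 2.12 to 2.54 in vehicle and 2.00 to 2.53 in TGF-β1. Per length, the most abundant members in the parental line were Ifitm3 (566 ± 93.9 TPM), a membrane protein that blocks virus entry, and Bst2 (437 ± 107 TPM), a tether that holds budding virions. Epsti1 was the least abundant at 0.323 ± 0.153 TPM (SD, n = 3 for each).

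**Figure D1:**
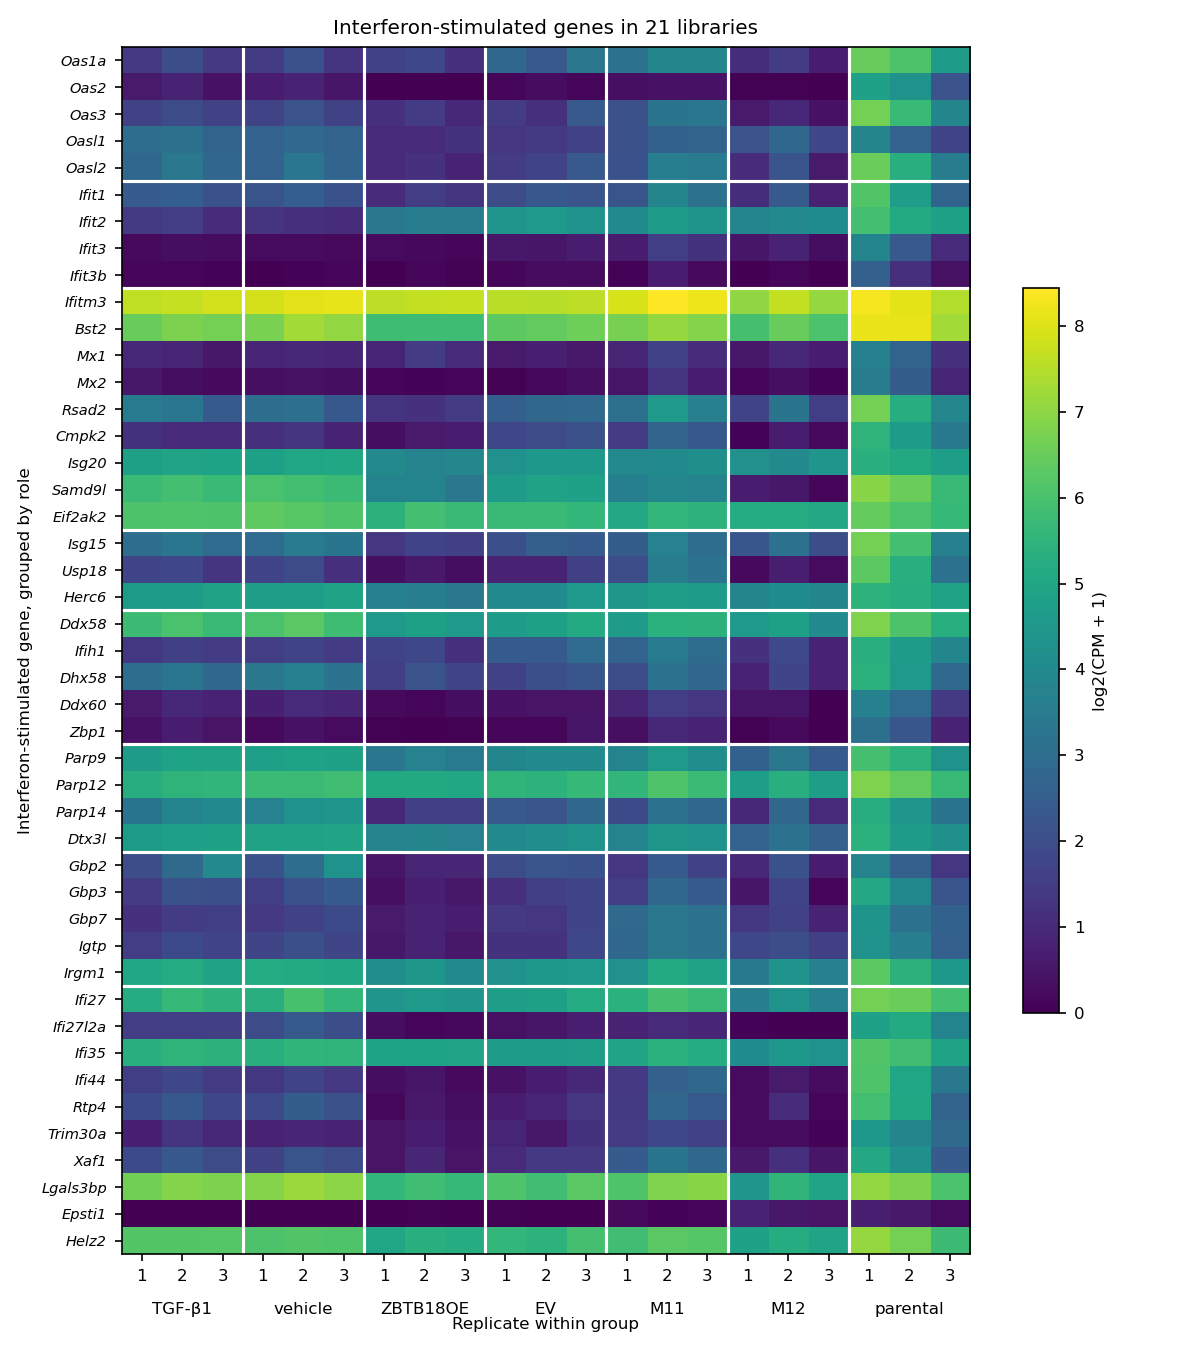
Level of each of the 45 interferon-stimulated genes as log2(CPM + 1) by colour, genes in rows grouped by role and the 21 libraries in columns grouped by line or treatment. The parental group at the right has the highest mean CPM for 39 of the 45 rows, and all 3 of its columns are the brightest for 9. Within it replicate 1 is brighter than replicate 3 in all 45 rows.

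The parental libraries differed from each other far more in these genes than in the rest of the transcriptome. The spread of a gene is the SD of log2(CPM + 1) over the 3 replicates. Its median over the 45 genes was 0.955 in the parental group, against 0.143 over all tested genes in the same libraries. The spread passed 0.5 for 39 of the 45, against 2.15% of all tested genes. Parental replicate 3 was the lowest of its group for 45 of 45 genes (40.7% of all tested genes). Parental replicate 1 was the highest for 44 (36.1% of all), and stood at least 2-fold above replicate 3 for 39 (6.36% of all). The median log2 difference of replicate 1 minus replicate 3 was 1.83 over the 45 genes, against 0.01 over all tested genes. Without replicate 1, the library with the high Gm42418 share, the median spread was 0.806. Without replicate 3 it was 0.535.

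The genes with the widest parental spread belong to several arms of the response. Ifit1, which binds foreign RNA ends, was at 69.8, 24.8 and 5.62 CPM in parental replicates 1, 2 and 3. Usp18, which removes ISG15 from proteins and dampens receptor signalling, was at 79.1, 39.1 and 7.98 CPM. Isg15, the ubiquitin-like modifier itself, was at 102, 59.96 and 11.7 CPM. In all of them replicate 3 lies several-fold below the others, and the highest value is 12.4 times the lowest for Ifit1, 9.91 times for Usp18 and 8.70 times for Isg15.

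Rtp4, a chaperone of receptor transport, was at 58.5, 32.0 and 5.45 CPM in the same libraries. Oasl2, a relative of the oligoadenylate synthetases, was at 91.3, 39.1 and 10.5 CPM. Rsad2, which encodes viperin, an enzyme that makes a chain-terminating nucleotide, was at 101, 37.5 and 13.9 CPM. These follow the same order of libraries as Ifit1, Usp18 and Isg15. Oas3 and Oas2, enzymes that make the activator of RNase L, were at 101, 52.0 and 13.6 CPM and at 27.2, 19.1 and 3.49 CPM. Gbp3, an interferon-inducible GTPase, was at 33.0, 14.4 and 3.61 CPM.

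Ifit3 was at 13, 4.17 and 1.02 CPM, and its near-copy Ifit3b at 4.98, 1.23 and 0.312 CPM. Of the 75-base words of their transcripts, 41.1% of those of Ifit3 also occur in Ifit3b, so the split of reads between the pair is uncertain. The same holds for Oas1a, which shares 47.6% of its words with Oas1g. For Herc6, Gbp7, Rtp4 and Igtp the share found in another gene was between 7.80% and 11.3%, and for each of the other genes at most 5.19%.

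A smaller set was steadier among the parental libraries. Herc6, the ligase that attaches ISG15 in mice, was at 43.4, 37.4 and 28.3 CPM in replicates 1, 2 and 3, with a spread of 0.305. Isg20, an exonuclease, was at 39.5, 33.6 and 24.9 CPM, with a spread of 0.328. Ifi27, a small membrane protein gene, was at 100.2, 92.8 and 59.0 CPM, with a spread of 0.408. The order of the libraries was the same for these 3 genes, with a narrower range. Eif2ak2, Ifitm3 and Epsti1, named after their values were seen, also stayed under 0.5, and Epsti1 was near the limit of detection at 0.199 to 0.679 CPM.

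**Figure D2:**
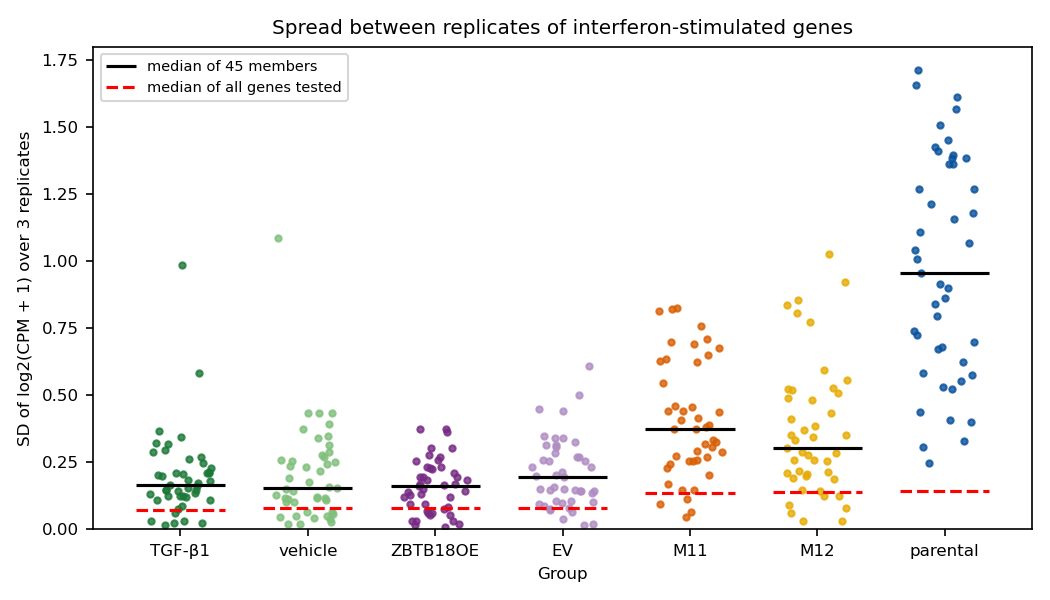
Spread of each gene in each group as the SD of log2(CPM + 1) over 3 replicates, 1 point a gene, with the median of the 45 genes as a black line and the median of all tested genes as a dashed red line. The black line is at 0.955 in the parental group, 0.374 in M11, 0.304 in M12 and under 0.2 in the other groups, while the red line stays between 0.0695 and 0.143.

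By this measure the metastasis lines showed a narrower spread in these genes than the parental line, and the other groups the narrowest. The added 1 CPM compresses the measure where levels are low. The median log2(CPM + 1) of the 45 genes was 3.53 to 5.48 in parental libraries, 0.844 to 2.04 in M12 and 1.08 to 1.51 in ZBTB18OE. How far level sets the order of the groups was not tested. The median spread was 0.374 in M11 and 0.304 in M12, against 0.136 and 0.139 over all tested genes. It lay between 0.154 and 0.193 in TGF-β1, vehicle, ZBTB18OE and EV, against 0.0695 to 0.0806 over all tested genes. The spread passed 0.5 for 13 of the 45 in M11 (0.525% of all tested genes), 12 in M12 (2.53%), 2 in TGF-β1 (0.402%), 2 in EV (0.175%), 1 in vehicle (0.486%) and 0 in ZBTB18OE (0.272%). In M11, replicate 1 was the lowest library for 44 genes (33.5% of all) and replicate 2 the highest for 37 (30.1%). M11 replicate 1 also had the highest mitochondrial share of counts, 3.42%, against 2.29% and 1.80% in M11 replicates 2 and 3. Its part in the M11 spread was not tested. In M12, replicate 2 was the highest for 39 (39.3%). Without M11 replicate 1 the median spread in M11 was 0.164, and without M12 replicate 2 that in M12 was 0.107.

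Genes that differed more between parental libraries tended to differ more between M11 libraries. Across the 45 genes, the log2 ratio of parental replicate 1 over 3 had a Pearson r of 0.78 and a Spearman rho of 0.79 with that of M11 replicate 2 over 1, and an r of 0.39 across all 15432 tested genes. With M12 replicate 2 over 3, r was 0.49 and rho 0.45 across the 45 genes, and r was 0.41 across all genes. Without parental replicate 1, the ratio of parental replicate 2 over 3 had an r of 0.65 and a rho of 0.64 with the M11 ratio, with an r of 0.27 across all genes. With the M12 ratio it had an r of 0.37 and a rho of 0.33, with an r of 0.38 across all genes. These are correlations across genes, which are not independent, and the library pairs were picked as the highest and lowest of their groups. The 45 points of a correlation share the same 4 libraries, and the 2 ratios have no library in common. The ratios are on CPM + 1, which shrinks them for genes with low levels. How far level sets these correlations was not tested.

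**Figure D3:**
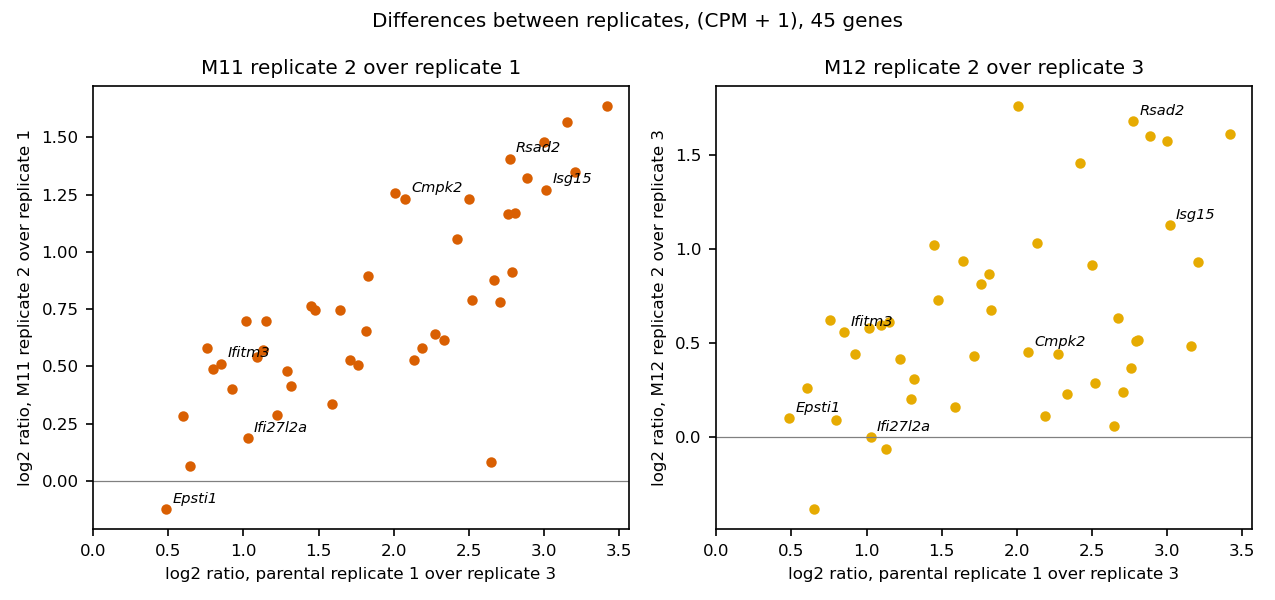
Log2 ratio between the highest and lowest library of M11 (left) and M12 (right), on (CPM + 1), against that between parental replicates 1 and 3, 1 point a gene. The M11 points climb with the parental ratio (r 0.78 across the 45 genes), and the M12 points are more scattered (r 0.49).

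Among the parental libraries, the factors Irf7, Stat2 and Irf9 varied in the same order as most interferon-stimulated genes. The receptor chains Ifnar1 and Ifnar2, and the factors Irf2 and Irf3, varied less. Whether Irf7, Stat2 and Irf9 drive the spread of the interferon-stimulated genes or vary along with it was not tested. Reads for Ifnb1, which encodes interferon-β, were 51, 29 and 3 in parental replicates 1, 2 and 3, and at most 6 in any other library. It did not pass the filter on low counts, nor did any of the other 20 ligand genes, so none was tested. Irf7, the factor that amplifies interferon production, was at 59.0, 29.0 and 4.69 CPM in parental replicates 1, 2 and 3. The order of the 3 libraries is that of the interferon-stimulated genes.

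Stat2 was at 71.3, 47.9 and 19.8 CPM and Irf9 at 74.7, 54.7 and 23.3 CPM in the same libraries. The receptor chain Ifnar1 was at 40.9, 46.4 and 47.0 CPM, and Ifnar2 at 23.8, 23.3 and 19.2 CPM. Jak1 was at 160, 158 and 191 CPM, and Tyk2 at 19.8, 21.2 and 17.9 CPM. For these 4 genes the highest parental library was less than 1.5 times the lowest. Irf3, which acts before interferon is made, was at 74.0, 74.9 and 58.0 CPM, and Irf2 at 27.0, 25.8 and 26.3 CPM.

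Irf7 fell in EV, M11 and M12 against parental, by 4.13 ± 0.758 on the log2 scale in EV (adjusted p = 0.000309), by 2.27 ± 0.685 in M11 (adjusted p = 0.0152) and by 4.67 ± 0.789 in M12 (adjusted p = 0.000157). Without parental replicate 1, it fell by 3.25 ± 0.676 in EV (adjusted p = 0.00115) and by 3.80 ± 0.701 in M12 (adjusted p = 0.000411), and did not pass in M11 (-1.41 ± 0.633, adjusted p = 0.102). Of 9 interferon receptors and kinases, a list chosen from general knowledge, 8 were tested. In EV against parental 5 rose and 0 fell, where 28.9% of all tested genes rose and 29.1% fell. In M11 2 rose and 1 fell (20.8% and 20% of all), and in M12 4 rose and 2 fell (24.9% and 25.2% of all). The counts were 4 and 0 in EV, 2 and 1 in M11, and 3 and 2 in M12 without parental replicate 1. Of all tested genes, 26.7% rose and 23.6% fell in EV without that library, 17.6% and 16.4% in M11, and 23% and 22.6% in M12. Jak1 rose by 0.56 ± 0.109 in EV against parental (adjusted p = 0.000207). The 3 comparisons share the parental libraries.

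EV cells had less of nearly every interferon-stimulated gene than parental cells. Of the 45, 43 fell and 0 rose (adjusted p under 0.05), against 29.1% of all tested genes lower and 28.9% higher. DESeq2 also gave 43 and 0, and at an unadjusted p under 0.05, 44 fell and 0 rose. The median log2 fold change of the 45 was -2.94, against -0.02 over all tested genes. Every EV library lay below every parental library for 38 of the 45 (30% of all). Leaving out parental replicate 1, 39 genes fell (23.6% of all), with a median of -2.15. The mitochondrial share of counts was 0.861% to 1.07% in EV and 2.41% to 2.56% in parental libraries. The summed level of 7 fibroblast markers, 4 of which were tested, was 293 to 342 CPM in EV and 142 to 151 CPM in parental cells, with 2 of the 7 at 0 reads in each; 2 of the 4 rose and 1 fell. That of 6 endothelial markers was 0.738 to 0.840 CPM in EV and 0.273 to 0.739 CPM in parental cells, with 2 and 1 at 0 reads, and 1 of the 4 tested rose. That of 15 blood and immune cell markers was 12.1 to 13.7 CPM in EV and 8.0 to 13.5 CPM in parental cells, with 4 and 5 at 0 reads; 1 of the 6 tested rose and 2 fell. Their part in these results was not tested.

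Ifi27l2a, a small membrane protein gene, was at 0.314, 0.437 and 0.634 CPM in EV and at 27.5, 34.3 and 13 CPM in parental cells. It was 56.5-fold lower (log2 fold change -5.82 ± 0.340 SE, adjusted p = 9.52e-11), with no overlap. Trim30a, which restrains Toll-like receptor signalling, was at 0.840, 0.465 and 1.35 CPM in EV and 21.6, 13.2 and 6.50 CPM in parental cells, 15.6-fold lower (adjusted p = 2.18e-07). Here too the groups do not overlap. Oas2 was at 0.113, 0.219 and 0.106 CPM in EV and at 27.2, 19.1 and 3.49 CPM in parental cells, 118-fold lower (adjusted p = 2.53e-07). Ifi44 was at 0.339, 0.574 and 0.977 CPM in EV and at 68.9, 29.8 and 9.32 CPM in parental cells, 60.9-fold lower (adjusted p = 5.35e-06).

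The GTPase gene Igtp was at 1.33, 1.34 and 2.54 CPM in EV and 18.6, 11.2 and 4.97 CPM in parental cells, and Bst2 at 77.6, 83.7 and 94.7 CPM in EV and 291, 288 and 153 CPM in parental cells. They were 6.77-fold and 2.86-fold lower (adjusted p = 5.80e-06 and 7.76e-06). Neither overlapped between the groups. The most variable members also fell: Isg15 was 14.2-fold lower (adjusted p = 0.000104), Usp18 36.5-fold lower (adjusted p = 5.76e-05) and Ifit1 9.81-fold lower (adjusted p = 0.00182). Without parental replicate 1, Ifi44 was 32.5-fold, Isg15 8.66-fold, Usp18 20.1-fold and Ifit1 4.42-fold lower, all still past the threshold. Gbp2 and Lgals3bp, named because they were the only 2 not to pass, had log2 fold changes of -0.97 and -0.60 (adjusted p = 0.321 and 0.0681); without that library, Gbp2 had one of -0.01.

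**Figure D4:**
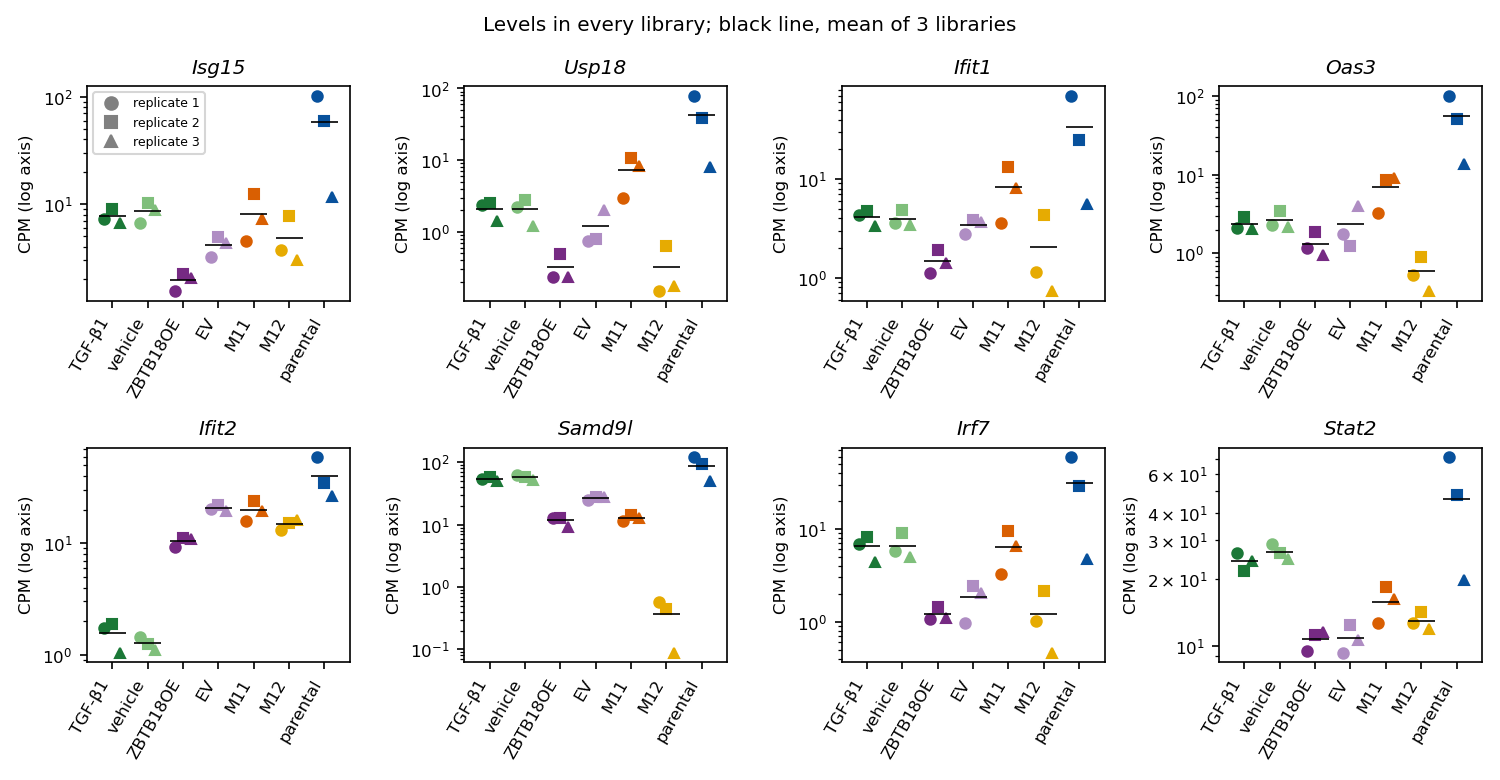
CPM on a log axis in every library for 6 interferon-stimulated genes and for the factors Irf7 and Stat2, 1 panel a gene, marker shape for the replicate number and a line for the mean of 3 libraries. Parental replicate 1 is the top point of every panel, Ifit2 is lowest in the 2 receptor groups, and Samd9l is lowest in M12.

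M11 cells had lower levels of most of these genes than parental cells, but their libraries often overlapped. Of the 45, 37 fell and 0 rose, against 20% of all tested genes lower and 20.8% higher. DESeq2 gave 38 lower and 0 higher, and at an unadjusted p under 0.05, 39 fell and 0 rose. Their median log2 fold change was -1.99. Every M11 library lay below every parental library for 16 of the 45 (19.6% of all). Without parental replicate 1 the count was 23 (16.4% of all) and the median -1.04. With the 6 libraries of these groups alone the count was 13, and its share over all tested genes was not computed. By role, 1 of 5 interferon-inducible GTPases fell, against all 5 nucleic acid sensors, all 4 IFIT genes and all 3 genes of the ISG15 system; the difference between roles was not tested. Without parental replicate 1, 0 of 5 GTPases fell, 3 of 5 sensors, 1 of 4 IFIT genes and 3 of 3 genes of the ISG15 system. The summed level of 6 endothelial markers was 3.57 to 4.27 CPM in M11 and 0.273 to 0.739 CPM in parental cells, with 2 and 1 of the 6 at 0 reads, and 3 of the 4 tested rose. That of the 7 fibroblast markers was 711 to 965 CPM in M11 and 142 to 151 CPM in parental cells, with 0 and 2 at 0 reads; 2 of the 4 tested rose and 1 fell. That of 15 blood and immune cell markers was 13.2 to 19.6 CPM in M11 and 8.0 to 13.5 CPM in parental cells, with 4 and 5 at 0 reads; 2 of the 6 tested rose and 2 fell. Their part in these results was not tested.

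Ifi27l2a was at 0.757, 1.00 and 0.855 CPM in M11 and 27.5, 34.3 and 13 CPM in parental cells. It was 28.8-fold lower (log2 fold change -4.85 ± 0.323, adjusted p = 1.90e-10). Samd9l, a restriction factor of poxviruses, was at 11.4, 14.1 and 12.7 CPM in M11 and 121, 92.6 and 51.2 CPM in parental cells, 6.93-fold lower (adjusted p = 1.18e-07). Neither gene overlapped between the lines. Oas2 was at 0.267, 0.344 and 0.326 CPM in M11, 53.5-fold lower than in parental cells (adjusted p = 7.76e-07).

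Isg20 was at 14.7, 15.4 and 17.2 CPM in M11 and at 39.5, 33.6 and 24.9 CPM in parental cells, 2.08-fold lower (adjusted p = 2.84e-06). Trim30a was at 1.83, 2.57 and 2.08 CPM in M11, 6.39-fold lower than in parental cells (adjusted p = 9.55e-06). Cmpk2, a mitochondrial nucleotide kinase, was at 1.83, 5.64 and 4.03 CPM in M11 and 43.5, 23.8 and 9.57 CPM in parental cells, 6.77-fold lower (adjusted p = 0.000323). None of the 3 overlapped. For Ifit1, by contrast, M11 replicates 1, 2 and 3 were at 3.59, 13.2 and 8.10 CPM, and the parental library at 5.62 CPM falls among them. Its adjusted p was 0.0349, with a 4.04-fold lower level. Once parental replicate 1 was left out, Ifit1 was 1.85-fold lower and did not pass (adjusted p = 0.304), and Cmpk2 was 4.43-fold lower.

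Nearly all of these genes were lower in M12 than in parental cells. Of the 45, 42 fell and 0 rose against parental cells, against 25.2% of all tested genes lower and 24.9% higher. DESeq2 gave 43 and 0, and at an unadjusted p under 0.05, 43 fell and 0 rose. The median log2 fold change was -3.55. Every M12 library lay below every parental library for 41 of the 45 (23.5% of all), and above for 0 (24.3% of all). Without parental replicate 1 the count was also 42 (22.6% of all), with a median of -2.44. The 3 that did not pass, named after their values were seen, were Oasl1, Gbp2 and Epsti1.

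Several genes had few reads in M12. Ifi27l2a was at 0.0595, 0.0215 and 0.0221 CPM, 4 reads in all, and at 27.5, 34.3 and 13 CPM in parental cells. It was 723-fold lower (log2 fold change -9.50 ± 0.475, adjusted p = 1.81e-12). Samd9l was at 0.565, 0.451 and 0.0883 CPM in M12 and 121, 92.6 and 51.2 CPM in parental cells, 248-fold lower (adjusted p = 1.51e-11). For both genes the lowest parental library lies far above all of M12. Oas2 had 3 reads in M12 and 1923 in parental cells. After scaling, that is a ratio of 703 of parental over M12 (95% interval 240 to 3411, counting error only; edgeR adjusted p = 5.01e-08).

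Trim30a was at 0.178, 0.193 and 0.0662 CPM in M12, 93.9-fold lower than in parental cells (adjusted p = 2.18e-09). Ifi27 and Herc6 fell less: Ifi27 was at 11.3, 19.1 and 12 CPM in M12 and at 100.2, 92.8 and 59.0 CPM in parental cells, 5.92-fold lower (adjusted p = 1.31e-07). Herc6 was at 13.6, 16.2 and 13.3 CPM in M12 and at 43.4, 37.4 and 28.3 CPM in parental cells, 2.53-fold lower (adjusted p = 3.06e-07). None of these groups overlapped. The summed level of 15 blood and immune cell markers, 6 of which passed the filter, was 33.9 to 89.2 CPM in M12 and 8.0 to 13.5 CPM in parental cells; 3 and 5 of the 15 had 0 reads, and 4 of the 6 rose. That of the 6 endothelial markers was 1.26 to 2.14 CPM in M12 and 0.273 to 0.739 CPM in parental cells, with 0 and 1 at 0 reads, and 3 of the 4 tested rose. That of the 7 fibroblast markers was 213 to 359 CPM in M12 and 142 to 151 CPM in parental cells, with 1 and 2 at 0 reads; 1 of the 4 tested rose and 2 fell. Their part in these results was not tested.

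The direct comparison of the metastasis lines showed higher levels in M11 for most genes. Of the 45, 30 rose and 1 fell in M11 against M12, against 17.7% of all tested genes higher and 17.8% lower. Over the 45 genes the median log2 fold change was 1.67, against 0.00 over all tested genes. Every M11 library lay above every M12 library for 28 of the 45 (20% of all). By role, 9 of the 10 IFI and other induced genes rose, 4 of 5 OAS genes, 4 of 5 nucleic acid sensors and 3 of 5 GTPases. The 4 IFIT genes had adjusted p-values between 0.0577 and 0.163. DESeq2 called 34 higher and 1 lower. The blood and immune cell markers summed to 13.2 to 19.6 CPM in M11 and 33.9 to 89.2 CPM in M12, with 4 and 3 of 15 at 0 reads; 1 of the 6 tested rose and 4 fell. The fibroblast markers summed to 711 to 965 CPM in M11 and 213 to 359 CPM in M12, with 0 and 1 of 7 at 0 reads, and 2 of the 4 tested rose. The endothelial markers summed to 3.57 to 4.27 CPM in M11 and 1.26 to 2.14 CPM in M12, with 2 and 0 of 6 at 0 reads; 1 of the 4 tested rose and 1 fell. Their part in these results was not tested.

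Samd9l, at 11.4, 14.1 and 12.7 CPM in M11 and at 0.565, 0.451 and 0.0883 CPM in M12, was 35.8-fold higher (log2 fold change 5.16 ± 0.384, adjusted p = 2.11e-08). Ifi27l2a was 25.1-fold higher (adjusted p = 6.12e-06) and Trim30a 14.7-fold higher (adjusted p = 1.06e-05). Ifi27 was at 40.6, 61.3 and 50.4 CPM in M11 and at 11.3, 19.1 and 12 CPM in M12, 3.57-fold higher (adjusted p = 1.38e-05). No M11 library of these 4 genes overlapped with M12.

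Dtx3l, a ubiquitin ligase that partners Parp9, was at 12.6, 21.1 and 19.3 CPM in M11 and at 5.29, 8.12 and 4.97 CPM in M12, 2.86-fold higher (adjusted p = 9.09e-05). Gbp7, another GTPase, was at 6.33, 9.40 and 8.10 CPM in M11 and at 1.61, 2.15 and 0.795 CPM in M12, 5.22-fold higher (adjusted p = 0.000193). Both were separated between the lines. Epsti1, named as the only one that fell, was at 0.156, 0.0626 and 0.0814 CPM in M11 and at 0.743, 0.451 and 0.353 CPM in M12, 4.67-fold lower (adjusted p = 0.00548). Isg20 differed by a log2 fold change of -0.20 ± 0.138 (adjusted p = 0.281) and Ifit2 by 0.42 (adjusted p = 0.163).

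ZBTB18OE cells had lower levels than EV cells of 11 of these genes, several of them virus inhibitors and GTPases. Of the 45, 11 fell and 0 rose in ZBTB18OE against EV, against 14.5% of all tested genes lower and 14% higher. At an unadjusted p under 0.05, 19 fell and 0 rose, and DESeq2 called 18 lower and 0 higher. The median log2 fold change was -1.06, against 0.01 over all tested genes, and 40 of the 45 had a negative one. Every ZBTB18OE library lay below every EV library for 32 of the 45 (24.7% of all). The fit shares 1 estimate of spread per gene over all groups, the parental libraries included. With the 6 ZBTB18OE and EV libraries alone, 31 fell and 2 rose, Mx1 and Ifi35. For these counts, the DESeq2 counts and the unadjusted ones, the share over all tested genes was not computed. Without ZBTB18OE replicate 3, or without EV replicate 3, the count that fell was 6. The fibroblast markers summed to 377 to 467 CPM in ZBTB18OE and 293 to 342 CPM in EV, with 2 and 2 of 7 at 0 reads; 1 of the 4 tested rose and 1 fell. The blood and immune cell markers summed to 4.85 to 8.97 CPM in ZBTB18OE and 12.1 to 13.7 CPM in EV, with 5 and 4 of 15 at 0 reads; 1 of the 6 tested rose and 2 fell. The endothelial markers summed to 0.540 to 0.657 CPM in ZBTB18OE and 0.738 to 0.840 CPM in EV, with 1 and 2 of 6 at 0 reads, and 1 of the 4 tested rose. Their part in these results was not tested.

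Samd9l was at 13, 12.8 and 9.23 CPM in ZBTB18OE and at 24.6, 28.3 and 27.6 CPM in EV. It was 2.29-fold lower (log2 fold change -1.20 ± 0.244, adjusted p = 0.00117). Herc6 was at 12.1, 11.3 and 9.45 CPM in ZBTB18OE and at 15.8, 15.7 and 22.1 CPM in EV, 1.62-fold lower (adjusted p = 0.00144). Isg20 was at 14.6, 12.7 and 13.9 CPM in ZBTB18OE and at 18.4, 21.8 and 21.8 CPM in EV, 1.5-fold lower (adjusted p = 0.00249). All 3 were separated between the groups.

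Ifit2, a relative of Ifit1, was at 9.29, 11.1 and 10.9 CPM in ZBTB18OE and at 20.1, 22.2 and 19.3 CPM in EV, 1.97-fold lower (adjusted p = 0.00261). Cmpk2 was at 0.251, 0.519 and 0.547 CPM in ZBTB18OE and at 2.47, 2.87 and 3.28 CPM in EV, 6.47-fold lower (adjusted p = 0.00261). Igtp was at 0.444, 0.810 and 0.456 CPM in ZBTB18OE and at 1.33, 1.34 and 2.54 CPM in EV, 3.01-fold lower (adjusted p = 0.00702). None of these overlapped either. The other 5 that fell were Gbp7, Ifih1, Oas1a, Ifi27l2a and Bst2.

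Many of the most variable members were lower in every ZBTB18OE library without passing the test. Isg15 was at 1.55, 2.24 and 2.06 CPM in ZBTB18OE and at 3.19, 4.92 and 4.31 CPM in EV, a log2 fold change of -1.07 ± 0.630 (adjusted p = 0.235). Usp18 was at 0.232, 0.498 and 0.237 CPM in ZBTB18OE and at 0.753, 0.793 and 2.03 CPM in EV (-1.84 ± 0.959, adjusted p = 0.174). Neither gene overlapped between the groups. Oas2 had 1 read in ZBTB18OE and 21 in EV (ratio of EV over ZBTB18OE 21.1, 95% interval 3.39 to 872, counting error only). Stat2 was at 9.47, 11.3 and 11.6 CPM in ZBTB18OE and at 9.33, 12.5 and 10.7 CPM in EV, with a log2 fold change of 0.00 ± 0.292 (adjusted p = 0.995).

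**Figure D5:**
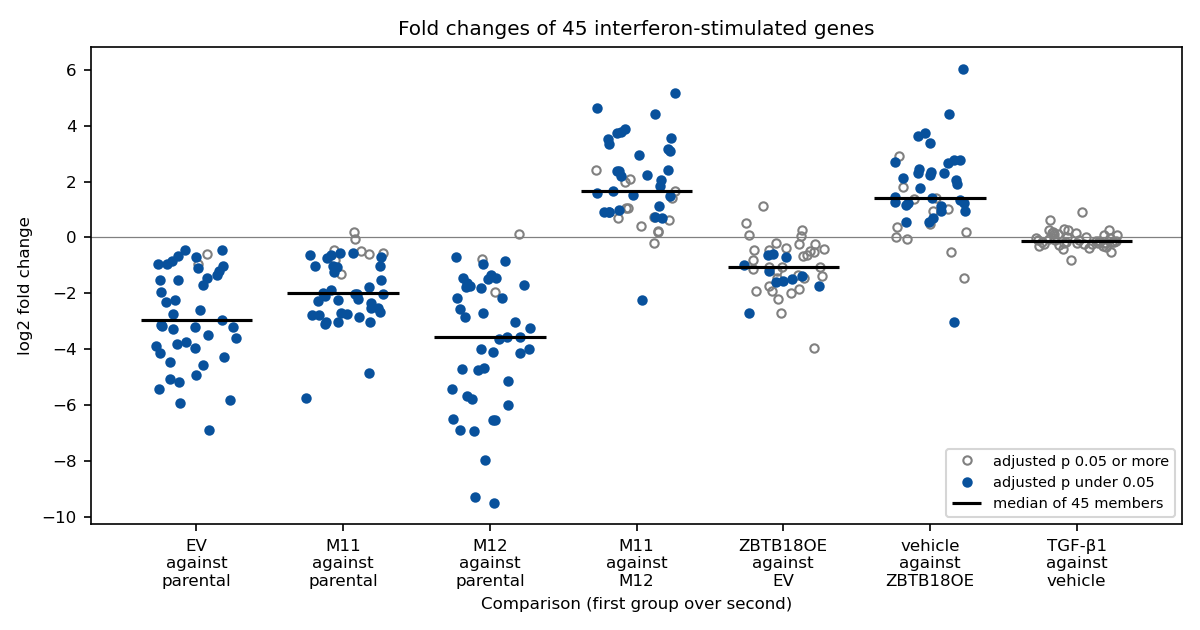
Log2 fold change of each of the 45 genes in the 7 comparisons, 1 point a gene, filled where the adjusted p is under 0.05, with the median as a bar. The medians are -2.94, -1.99 and -3.55 for EV, M11 and M12 against parental, 1.67 for M11 against M12, -1.06 for ZBTB18OE against EV, 1.40 for vehicle against ZBTB18OE and -0.12 for TGF-β1 against vehicle.

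The line with the receptor construct, given doxycycline and vehicle, had higher levels of most of these genes than ZBTB18OE. Of the 45, 31 rose and 1 fell in vehicle against ZBTB18OE, against 19.5% of all tested genes higher and 19.3% lower. The median log2 fold change was 1.40. Every vehicle library lay above every ZBTB18OE library for 38 of the 45 (28.3% of all). All 5 GTPases, all 4 genes of the PARP and DTX3L group and all 3 of the ISG15 system rose. The construct, the doxycycline and the line differ together here and cannot be told apart. The fibroblast markers summed to 154 to 163 CPM in vehicle and 377 to 467 CPM in ZBTB18OE, with 3 and 2 of 7 at 0 reads; 2 of the 4 tested rose and 1 fell. The endothelial markers summed to 1.19 to 1.91 CPM in vehicle and 0.540 to 0.657 CPM in ZBTB18OE, with 1 and 1 of 6 at 0 reads, and 1 of the 4 tested rose. The blood and immune cell markers summed to 9.07 to 20.8 CPM in vehicle and 4.85 to 8.97 CPM in ZBTB18OE, with 3 and 5 of 15 at 0 reads, and 2 of the 6 tested rose. Their part in these results was not tested.

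Ifi27l2a was at 2.79, 4.29 and 3.04 CPM in vehicle and at 0.232, 0.0830 and 0.146 CPM in ZBTB18OE, 21.4-fold higher (log2 fold change 4.42 ± 0.380, adjusted p = 1.17e-08). Samd9l was at 63.2, 57.6 and 52.9 CPM in vehicle and at 13, 12.8 and 9.23 CPM in ZBTB18OE, 4.96-fold higher (adjusted p = 1.07e-06). Isg20 was 2.17-fold, Herc6 2.38-fold and Bst2 2.37-fold higher (adjusted p = 1.43e-06, 1.53e-06 and 9.29e-05). The libraries of these genes did not overlap. Ifit2 was the only one that fell, at 1.45, 1.25 and 1.11 CPM in vehicle and 9.29, 11.1 and 10.9 CPM in ZBTB18OE, 8.08-fold lower (log2 fold change -3.01 ± 0.261, adjusted p = 2.91e-08). Its neighbour Ifit1 had a log2 fold change of 1.40 ± 0.776 (adjusted p = 0.170), and Ifit3 one of 0.47 ± 0.949 (adjusted p = 0.732).

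With the fit over all 21 libraries, which does not pair replicates, none of the 45 genes passed the threshold between TGF-β1 and vehicle. In TGF-β1 against vehicle, 0 rose and 0 fell, against 1.26% of all tested genes higher and 0.654% lower. DESeq2 also called 0 and 0, and at an unadjusted p under 0.05, 1 fell and 0 rose. The median log2 fold change was -0.12, against 0.00 over all tested genes. Every TGF-β1 library lay below every vehicle library for 5 of the 45 (13.6% of all) and above for 2 (14.1% of all). The replicate numbers of these groups pair by the check on shared deviations. With the number as a block and these 6 libraries alone, 2 rose (Rsad2 and Zbp1) and 11 fell, among them Bst2, Parp12, Parp14, Dtx3l and Ifi27l2a. That fit was added after seeing the data, and its share over all tested genes was not computed.

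For single genes, the standard errors given here come from the fit over all 21 libraries, which does not pair replicates. Isg15 was at 7.25, 9.04 and 6.70 CPM in TGF-β1 and at 6.69, 10.2 and 8.76 CPM in vehicle, a log2 fold change of -0.16 ± 0.559. Bst2 was at 87.5, 109.7 and 100.2 CPM in TGF-β1 and at 107, 153 and 134 CPM in vehicle (-0.41 ± 0.198, adjusted p = 0.405). Both genes overlapped between the groups. Compared by replicate number, Bst2 was lower in TGF-β1 than in vehicle at each number, and Isg15 was not. Gbp2, named after its values were seen, set replicates apart more than treatments, at 2.99, 6.59 and 14.6 CPM in TGF-β1 replicates 1, 2 and 3 and at 3.36, 7.04 and 18.5 CPM in the vehicle replicates with these numbers. Irf1, a factor that acts on the GBP genes, was at 30.9, 43.5 and 58.2 CPM in TGF-β1 and at 30.4, 55.5 and 79.7 CPM in vehicle.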

How the data were processed

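RNA was measured in 21 libraries, 3 in each of 7 groups; groups and replicate numbers came from the sample titles. The deposited values used were unnormalised expected counts from RSEM and its TPM, which the authors' tool scales for gene length. The submitters' processing notes name RSEM, STAR 2.7.1a, Trim Galore and GATK 4.1.2.0, and build mm10; the annotation release is not given in the sources used here. The deposited FPKM values were not used. Of the count values, 1.28% were not whole and were rounded; 92 spike-in entries held 0 reads and were left out. Of the gene identifiers, 99.29% occur in GENCODE vM21, used for positions.

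A robust quasi-likelihood F-test from edgeR 4.0.16 (R 4.3.3) was fitted over all 21 libraries with 1 mean per group and 14 residual degrees of freedom, after filterByExpr by group and TMM scaling. Two-sided p-values were corrected by Benjamini-Hochberg over 15432 genes, with a threshold of 0.05. Errors of levels are SDs of 3 libraries, and errors of log2 fold changes are SEs, the absolute fold change over the square root of F. Ratios with 1 to 3 reads have exact conditional binomial 95% intervals. Reads carry no molecular identifiers, so intervals cover counting error only. The scripts were tested on simulated data.

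Some genes of the pathway are not reported here. The genes, the pathway lists and the tests were chosen with earlier results of these data known. Named genes are the 10 with the widest parental spread among those with a mean of at least 5 CPM, the 6 with the smallest adjusted p in each comparison with calls, and Ifit3b. Alternatives were DESeq2 1.42.0, its size factors, limma 3.58.1 on TPM, other filters, the 6 libraries of a comparison, the replicate number as a block, and leaving out each library. The recomputation of list, role and level counts without parental replicate 1 was chosen after seeing the data. Same-numbered libraries deviated together, with correlations of 0.52, 0.29 and 0.59 in TGF-β1 and vehicle and of 0.23, 0.48 and 0.33 in M11 and M12; in the other comparisons at least 1 correlation was 0.1 or less, so their numbers were not treated as pairs.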

Additional observations from a re-analysis of the deposited data

How the results depend on the processing

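All 45 genes differed among the groups under every alternative but the filter of 1 CPM in 3 libraries, which removes Ifit3b, Zbp1 and Epsti1 and left 42. Of 75 calls on named genes, each recomputed with 15 alternatives, 1038 of 1125 stayed past the threshold in the same direction, 87 no longer passed and 0 reversed. For ZBTB18OE against EV, the number lower was 18 with DESeq2, 35 with 1 higher (Mx1) without a filter, and 31 with 2 higher with the 6 libraries alone. For TGF-β1 against vehicle, 4 were lower without a filter and 3 with the 6 libraries alone. For M11 against parental, 13 were lower with the 6 libraries alone, and 1 (Ifitm3) was higher with limma on log2(TPM + 1) or log2(TPM + 0.1). Epsti1, the gene lower in M11 than in M12, is removed by a filter of 1 CPM in 3 libraries, which leaves 0. The causes of the other shifts were not tested, and shares over all tested genes were not computed for these alternative counts.

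With the replicate number as a block over all 21 libraries, 12 genes were lower in ZBTB18OE against EV, 0 differed in TGF-β1 against vehicle, 35, 42 and 43 were lower in M11, M12 and EV against parental, 32 were higher in M11 against M12, and 30 in vehicle against ZBTB18OE. A block with the 6 libraries alone was added after seeing the data. It gave 28 lower and 2 higher in ZBTB18OE against EV, 11 lower and 2 higher in TGF-β1 against vehicle, 8 and 13 lower in M11 and EV against parental, and 37 higher and 1 lower in M11 against M12. Only the numbers of TGF-β1 with vehicle and of M11 with M12 pair by the check.

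Leaving out 1 library at a time gave 6 to 11 genes lower in ZBTB18OE against EV, 23 to 41 in M11, 42 to 44 in M12 and 39 to 44 in EV against parental. It gave 23 to 32 higher in M11 against M12 and 23 to 28 in vehicle against ZBTB18OE, 1 lower in each, and 0 in TGF-β1 against vehicle. The median spread ranged from 0.535 to 1.29 in parental, 0.164 to 0.493 in M11, 0.107 to 0.364 in M12, 0.0937 to 0.213 in EV, 0.0740 to 0.153 in ZBTB18OE, 0.0955 to 0.151 in vehicle and 0.130 to 0.154 in TGF-β1. With 3 libraries a group, shared 75-base words for Ifit3 and Oas1a, and few reads for Oas2 and Epsti1 outside the parental group, single fold changes of these genes are imprecise.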
